A study of Mus musculus with 2 samples.

Results

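The cells described here are wild-type descendants of Sox9-expressing hair follicle cells, taken from wounded mouse skin 5 days and 3 days after wounding (dpw). They come from 1 single-cell RNA capture in which each of 6 conditions carried its own hashtag, an antibody-borne DNA barcode counted beside the RNA. A barcode was kept with at least 1000 gene UMIs (unique molecular identifiers, each standing for 1 captured RNA molecule), 500 or more genes, and no more than 10% of its UMIs from mitochondrial genes. It received a condition when it held at least 20 hashtag UMIs and at least 70% of them came from 1 hashtag. By this rule 1559 cells belonged to Phgdh +/+ 5 dpw and 1411 to Phgdh +/+ 3 dpw, together 2970 of the 5890 cells with a condition. Between 70% and 75% of hashtag UMIs, just inside the limit, lay 62 cells at 5 dpw and 30 at 3 dpw, and just outside, between 65% and 70%, lay 51 and 30.

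Both pools carried the Sox9-CreER driver and the R26-LSL-YFP reporter beside 2 intact copies of Phgdh, on C57B6/J. The driver places a tamoxifen-dependent Cre under Sox9 control, so that YFP marks the follicle lineage. Both were sorted through 1 gate, which took live cells with high integrin-α6 and YFP and discarded cells bearing CD31, CD45, CD117 or CD140a. The study also held unwounded +/+ cells, sorted through a different gate for CD34 and CD200, and the same 3 conditions with a floxed Phgdh (fl/fl). The labels describe pooled males and females and do not give ages or the number of mice per pool. With 1 pool per condition there is no replicate of a time point, so no test was made. Every interval below covers the counting of UMIs or of cells alone, and not the spread between mice. A second view of the spread came from cells called female or male by their Xist and Y-linked UMIs, since these must come from different mice. There were 343 female and 1030 male cells at 5 dpw, and 420 female and 819 male cells at 3 dpw. By the same call the other pools held 0 female cells, although the labels describe both sexes. The floxed pools held 1382 male cells at 5 dpw and 461 at 3 dpw, so their values stand beside the male cells and say nothing of female ones.

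After a skin wound, stem cells of the hair follicle bulge leave their niche, move into the wound edge and help rebuild the epidermis. Migrating keratinocytes express stress keratins, matrix proteases and alarmins, whereas cells that return to the outward path of differentiation switch on keratins 1 and 10 and later the proteins of the cornified envelope. Phgdh, the enzyme that opens the route from glycolysis to serine, is the gene floxed in the study, which the study's title places beside the integrated stress response, the program driven by the transcription factor ATF4.

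The hashtags decide which cells belong to which day, and their sequences are given in the deposited hashtag reference as follows.
5 dpw Phgdh +/+ hashtag: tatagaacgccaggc
3 dpw Phgdh +/+ hashtag: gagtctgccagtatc
The hashtag with the most UMIs held a median of 94.5% of a cell's hashtag UMIs at 5 dpw and 97% at 3 dpw.

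The 5 dpw pool held 64064964 gene UMIs and the 3 dpw pool 61712714, with medians of 37034 and 41132 UMIs per cell. The female cells at 5 dpw were the shallowest, with a median of 23317 UMIs, against 44347 in male cells at 5 dpw, 38055.5 in female cells at 3 dpw and 44343 in male cells at 3 dpw. UMIs were summed over the cells of a pool and scaled to counts per 1000000 UMIs (CPM), so that 3 UMIs correspond to 0.0468 CPM at 5 dpw and 0.0486 CPM at 3 dpw. The keratinocyte gene Krt14, which marks basal cells of any origin and not the Sox9 lineage, reached 25988 CPM at 5 dpw and 24300 CPM at 3 dpw. No reporter level was analysed here. Summed over 8 fibroblast markers the pools held 3.15 and 5.43 CPM, over 7 endothelial markers 2.15 and 2.19 CPM, and over 10 macrophage and neutrophil markers 10.6 and 12.6 CPM. Melanocyte and mast cell markers stood apart, at 16.3 CPM at 5 dpw and 1.25 CPM at 3 dpw, led by Dct at 8.35 and 0.37 CPM.

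Gene levels differed little between the days. Of the 2836 genes that averaged 50 CPM or more over the pools, 97.4% lay within 1.5-fold of each other, and the median log2 fold (5 dpw over 3 dpw) was -0.03. At least 2-fold higher at 5 dpw were 3 genes (0.106%), namely Robo1, Krt10 and Ctsc, and at least 2-fold lower were 20 (0.705%). At 1.5-fold the counts were 14 higher (0.494%) and 61 lower (2.15%). In this comparison the interval of the fold left out 0 for 71.1% of genes, because the pools are deep, so the size of a fold was used to call genes and not its interval. The floxed pools are other mice that share no cells with these, and between them 8 genes (0.282%) were at least 2-fold higher and 37 (1.30%) at least 2-fold lower. All 14 of the higher genes were also at least 1.5-fold higher in the floxed pools, where 1.52% of all 2836 genes were, and 50 of the 61 lower genes were at least 1.5-fold lower there, where 3.31% were. For comparison, 75.5% of all 2836 genes had the same direction in both genotypes. Male cells showed the direction of the pool for 14 of 14 higher and 61 of 61 lower genes, and female cells for 9 of 14 and 49 of 61. Male cells held 50211168 of the 64064964 UMIs at 5 dpw and 38777915 of the 61712714 at 3 dpw. Their match with the pool is therefore largely set in advance. Over all 2836 genes, female and male cells had the same direction as each other for 60.1%.

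**Figure D1:**
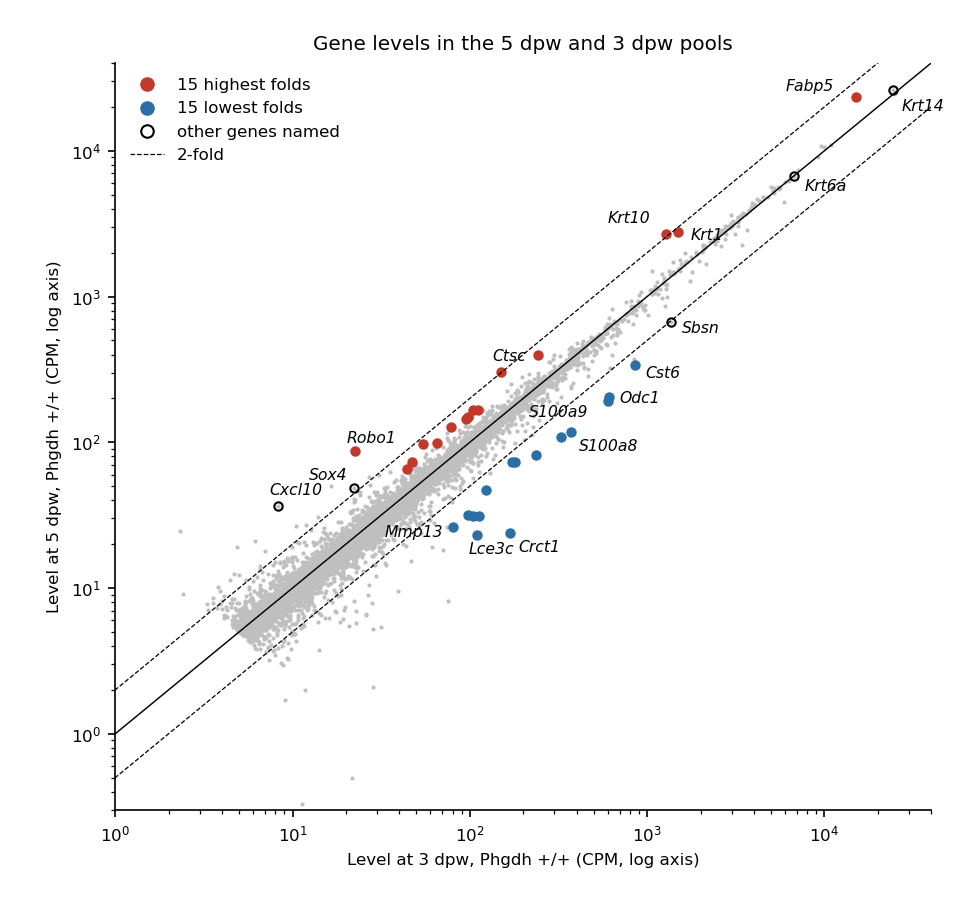
Level of each gene with a mean of at least 5 CPM in the 5 dpw pool (vertical) and in the 3 dpw pool (horizontal), both in CPM on log axes, with the 15 highest folds in red, the 15 lowest in blue and other named genes as open circles. Most points hug the line of equal levels, Robo1 and Cxcl10 lie above the dashed 2-fold line, and Crct1, S100a8, S100a9 and Odc1 lie below it.

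The gene with the highest fold was Robo1, which encodes a receptor for the SLIT guidance proteins. Robo1 reached 87.1 CPM at 5 dpw (80.2 in female and 87.3 in male cells), against 22.4 CPM at 3 dpw (25.9 and 20.2). The female and male values of the days did not overlap, as was so with 5 dpw higher for 11.1% of the 2836 genes, and the log2 fold was 1.96 (95% interval 1.87 to 2.04). The floxed pools gave 82.5 CPM at 5 dpw and 22.6 CPM at 3 dpw. Unwounded +/+ cells held 31.4 CPM, near the 3 dpw level.

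Keratin 10 and keratin 1, the keratin pair that suprabasal cells make as they leave the basal layer, came next with the protease gene Ctsc. Krt10 stood at 2689 CPM at 5 dpw (2585 in female, 2777 in male cells) and 1274 CPM at 3 dpw (1946 and 885), a log2 fold of 1.08. Krt1 stood at 2769 CPM at 5 dpw (2570 and 2865) and 1499 CPM at 3 dpw (2234 and 1075), a log2 fold of 0.89. For both keratins every 5 dpw value lay above every 3 dpw value, but the step was small in female cells, with log2 folds of 0.41 for Krt10 and 0.20 for Krt1, against 1.65 and 1.41 in male cells. Ctsc, which encodes cathepsin C, an activator of serine proteases, had 304 CPM at 5 dpw (216 and 324) and 150 CPM at 3 dpw (127 and 162). Its log2 fold of 1.02 came with groups that did not overlap.

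The other genes among the 15 highest had log2 folds of 0.57 to 0.83. Fabp5, the epidermal fatty acid binding protein, reached 23442 CPM at 5 dpw and 15084 CPM at 3 dpw. Gsto1, a glutathione transferase, had 398 and 242 CPM, and Ass1, which makes argininosuccinate on the way to arginine, had 167 and 104 CPM. Among these 3 genes the female and male values of the days did not overlap. For Fabp5 the gap was slight, with 15639 CPM in female cells at 5 dpw and 15545 CPM in male cells at 3 dpw. Its log2 fold was 0.15 in female and 0.69 in male cells. In contrast, Itpkc, Irf1, Lgals1, Mt4 and Bhlhe40 were higher in male cells but not in female cells, with female log2 folds of -0.25, -0.34, -0.06, -0.04 and -0.21. Clca3a2 went the other way, with 204 CPM in female cells at 5 dpw and 59.6 CPM in female cells at 3 dpw, beside 34.5 and 33.8 CPM in male cells. Over the 15, the days did not overlap for 9 genes, against the 11.1% given above for 5 dpw higher and 34.6% in either direction. The folds also chose these 15, so the count is a description.

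**Figure D2:**
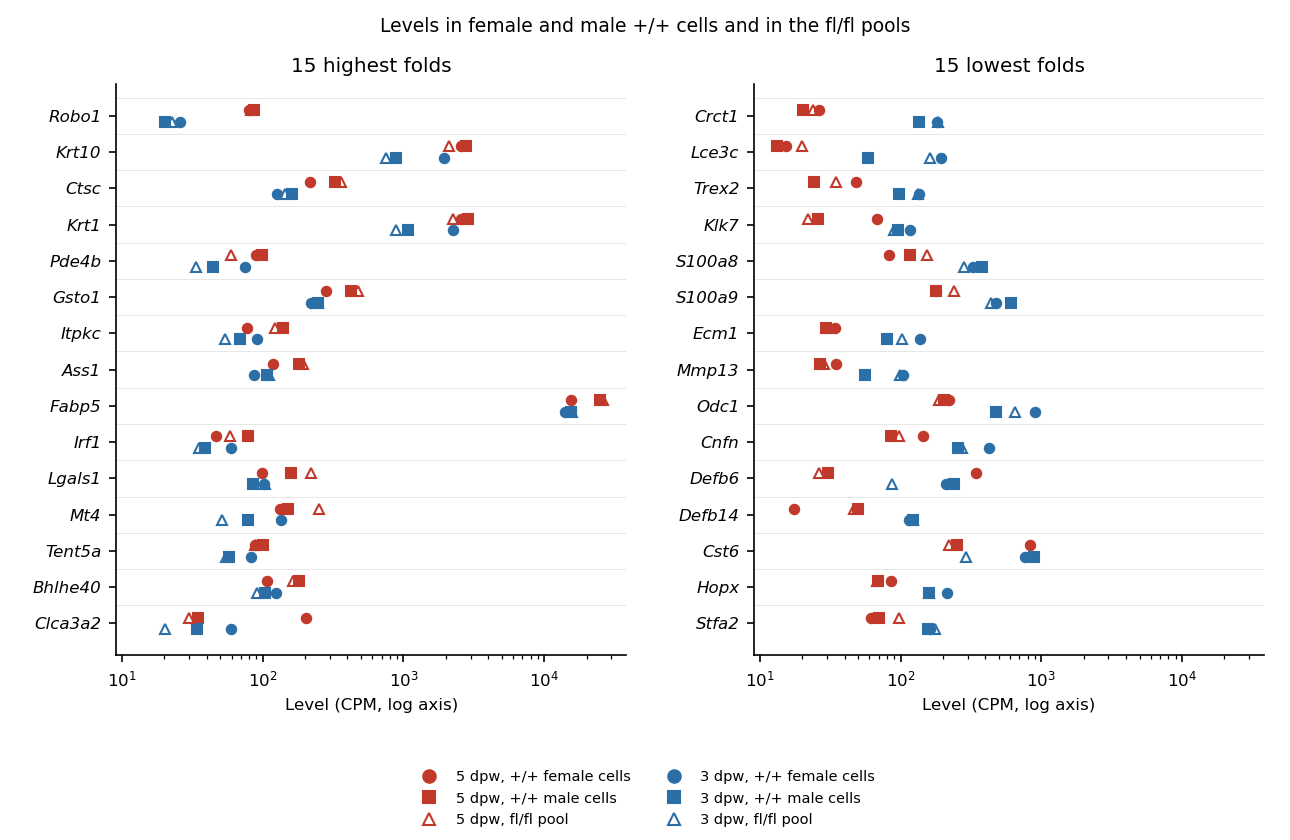
Levels of the 15 genes with the highest folds (left) and the 15 with the lowest (right) in CPM on a log axis, red for 5 dpw and blue for 3 dpw, with female +/+ cells as circles, male +/+ cells as squares and the fl/fl pools as open triangles. Robo1 and Crct1 separate the days at every symbol, whereas Defb6 and Cst6 separate them in male cells and not in female cells.

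Lower genes were led by late differentiation genes and alarmins. Crct1, a cysteine-rich gene of the epidermal differentiation complex, had 23.7 CPM at 5 dpw (26.4 in female, 20.1 in male cells) and 169 CPM at 3 dpw (182 and 136), a log2 fold of -2.83. Lce3c, a late cornified envelope gene, had 22.9 CPM at 5 dpw and 109 CPM at 3 dpw. Klk7, a protease that cleaves corneodesmosomes, had 31 and 104 CPM, and Cnfn, which encodes the envelope protein cornifelin, had 108 and 325 CPM. Trex2, a DNA exonuclease of keratinocytes, had 31.4 CPM at 5 dpw and 113 CPM at 3 dpw. In all 5 of these genes the 5 dpw values of both sexes lay below the 3 dpw values of both, as they did for 23.6% of the 2836 genes. Much of the UMIs of the late genes lay in few cells: the 5 cells with the most Crct1 UMIs held 68.6% of them at 5 dpw and 47.4% at 3 dpw, and for Lce3c 87.5% and 66.7%. For Klk7 these shares were 51.8% and 20.9%, and for Cnfn 47.4% and 19.0%.

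Folds of the lower genes were also read without 1 cluster of cells. Among 17 clusters of the 2970 cells, the cluster led by Lce3d, Lce3c, Mal and Lce3f held 16 cells at 5 dpw and 78 at 3 dpw. Without that cluster, which its own late genes define, the log2 fold was -2.01 for Crct1, -0.68 for Lce3c, -0.84 for Trex2 and -0.28 for Cnfn. The number of 2-fold lower genes was then 9 in place of 20. In 2 more clusters 1 pool held at least 80% of the cells. One was led by Cxcl9, Kcnk10, Thbs1 and Cxcl10 and held 96 cells at 5 dpw, 82 of them male, and 12 at 3 dpw. The other was led by Gpx2, Adamts5 and Klk6 and held 1 cell at 5 dpw and 50 at 3 dpw. Without either of these 2 alone the lower genes numbered 20 and 22. Without all 3, which leaves 1446 and 1271 cells, they again numbered 9. The 3 clusters were picked for holding cells mostly of 1 pool, so leaving them out shrinks folds of their leading genes by construction. Values without them, here and below, are a description and test nothing.

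The epidermal differentiation complex was read gene by gene between S100a1 and S100a10, at positions 90514330 to 93555117 of chromosome 3 in the GRCm38.p6 annotation. S100a1 and S100a10, which flank this stretch, are not counted in it. Of 67 protein-coding genes placed there, 28 reached 5 CPM, of which 4 were at least 1.5-fold higher, 12 at least 1.5-fold lower and 12 in between. The higher ones were Flg, Prr9, Tchh and Sprr2i. Over all 9366 genes of at least 5 CPM, 1.30% were at least 1.5-fold higher and 2.99% at least 1.5-fold lower. Within the locus, Lce3d had 8.18 CPM at 5 dpw and 75.6 CPM at 3 dpw, and Sprr1a, a small proline-rich envelope precursor, had 375 and 839 CPM. Sprr1a was lower in female cells (478 and 1036 CPM) and in male cells (332 and 702 CPM), but its log2 fold of -1.16 shrank to -0.08 without the 3 clusters named above. Ivl, which encodes the envelope scaffold involucrin, had 14.8 and 33.1 CPM. Flg, which encodes filaggrin of the granular layer, had 45.7 CPM at 5 dpw and 28.8 CPM at 3 dpw, but 5 cells held 85.3% and 66.3% of its UMIs. Without the 5 highest cells of each pool its log2 fold was -0.54 in place of 0.67, so Flg has no settled direction here. The same holds for Sprr2i, with a log2 fold of 1.98 in the pool, -0.76 in female cells and -0.68 in the floxed pools, and 89.2% of its UMIs at 5 dpw in 5 cells.

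Read as whole lists, early and late differentiation genes differed in their counts. Of 16 early suprabasal genes, 3 were at least 1.5-fold higher (Krt10, Krt1 and Mt4) and 2 at least 1.5-fold lower, with a median log2 fold of 0.03. The lower members were Sbsn, the suprabasal secreted protein suprabasin, at 664 CPM at 5 dpw and 1366 CPM at 3 dpw, and Grhl3, a barrier transcription factor, at 29.0 and 48.9 CPM. Sbsn was lower in female cells (738 and 1728 CPM) as in male cells (637 and 1197 CPM). Of 23 cornified envelope genes, 3 were higher and 10 lower by at least 1.5-fold, with a median of -0.45, against -0.05 over all 9366 genes. The median was -0.08 without the 3 clusters.

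Alarmins and other inflammatory genes leaned lower at 5 dpw, with 16 of 23 measured members below 0 and 7 above, beside 5911 of all 9366 genes below 0. S100a8 and S100a9, whose products pair to form calprotectin, an alarmin that keratinocytes make in wounds, gave the clearest values. S100a8 had 117 CPM at 5 dpw (82.1 in female, 117 in male cells) and 370 CPM at 3 dpw (330 and 378), a log2 fold of -1.66. S100a9 had 193 CPM at 5 dpw (179 and 180) and 600 CPM at 3 dpw (475 and 610), a log2 fold of -1.64. The days did not overlap for either gene. The folds were -0.86 and -0.89 in the floxed pools, and -1.07 and -0.95 without the 3 clusters. Of 23 measured members of the list, 11 were at least 1.5-fold lower and 1 higher, beside the 2.99% and 1.30% of all genes. The list median was -0.52 in the pool, -0.47 in female and -0.15 in male cells, and -0.30 without the Lce3d cluster. The 7 inflammatory markers used to name clusters summed to 2238 CPM at 5 dpw and 2698 CPM at 3 dpw. In female cells their sum was 2912 and 2714 CPM, and in male cells 2062 and 2569 CPM. Stfa3, the highest of these markers, was higher at 5 dpw, at 1734 and 1394 CPM.

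Other members of that list covered several roles. Il24, a cytokine of wound-edge keratinocytes, had 61.9 CPM at 5 dpw and 131 CPM at 3 dpw, and Tslp, an epithelial cytokine, had 6.49 and 26 CPM. Stfa2, a stefin-type cysteine protease inhibitor, had 73.6 and 172 CPM. The beta-defensin gene Defb14 had 47 CPM at 5 dpw and 124 CPM at 3 dpw, although its log2 fold of -1.40 became 0.03 without the 3 clusters. The list member at least 1.5-fold higher was Ccl2, a monocyte chemoattractant, at 16.3 and 10.3 CPM. It had 7.76 and 9.95 CPM in female cells and a log2 fold of -1.10 in the floxed pools. Members of the interleukin 1 family differed little, with Il33 at 106 and 102 CPM and Il18 at 17.7 and 16.8 CPM. All 10 measured S100 genes lay below 0, also with TMM factors (a scaling that limits the weight of the genes that differ most), and 4 of them were at least 1.5-fold lower. Over all 9366 genes of at least 5 CPM, 5911 lay below 0, and 2.99% were at least 1.5-fold lower.

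Genes of the migrating wound edge were lower too. Of 26 measured members, 11 were at least 1.5-fold lower (2.99% over all genes) and 0 higher, with a median log2 fold of -0.53 (-1.05 in female and -0.33 in male cells). Mmp13, which encodes collagenase 3, had 26.3 CPM at 5 dpw (34.7 and 26.8) and 80.3 CPM at 3 dpw (104 and 55.6). Mmp9, which encodes gelatinase B, had 19.1 CPM at 5 dpw (16.6 and 20.8) and 61.5 CPM at 3 dpw (72.7 and 47.7). For both proteases the days did not overlap, and the log2 folds were -1.61 and -1.68. Within the clusters of like cells read below, their median log2 folds were 0.01 and 0.97. The 5 cells with the most Mmp13 UMIs held 46.6% of them at 5 dpw and 32.8% at 3 dpw. Ecm1, an extracellular matrix glycoprotein, had 31.5 and 97.3 CPM, and Serpinb2, a plasminogen activator inhibitor, had 325 and 617 CPM. Plaur and Cd44, the receptors for urokinase and hyaluronan, lay near 0 on the log2 scale, with folds of 0.07 and -0.00.

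The Mmp13 promoter is shown because AP-1, the dimer of FOS and JUN proteins, is a textbook regulator of this collagenase and its motif lies close to the start site. It covers 250 bases before the start and 50 after it, at chr9:7272264-7272563 on the plus strand of GRCm38.p6, from RefSeq. Capitals mark an AP-1 motif (TGANTCA) and a pair of GAAA words 2 bases apart, the pair being read on the opposite strand.
Mmp13 promoter: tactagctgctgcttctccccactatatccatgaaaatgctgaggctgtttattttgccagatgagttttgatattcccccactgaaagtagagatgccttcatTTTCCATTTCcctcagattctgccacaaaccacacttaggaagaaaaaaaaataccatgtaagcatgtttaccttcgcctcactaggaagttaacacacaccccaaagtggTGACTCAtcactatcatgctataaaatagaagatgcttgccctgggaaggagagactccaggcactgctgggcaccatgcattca
Searched on both strands, TGANTCA was present in 7.81% of 32851 RefSeq promoters of this length, in 1 of the 16 promoters listed for 11 of the 15 highest genes and in 2 of the 13 listed for 12 of the 15 lowest. The motifs do not overlap here. These are counts of letters and not of bound factors.

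Anchorage genes of the basal layer followed the wound-edge list. Of 15 basal keratinocyte genes, 6 were at least 1.5-fold lower and 0 higher, where 2.99% and 1.30% of all genes were, and the median was -0.44. The lower members included chains of laminin 332 and its integrin receptors. Lamb3 had 112 CPM at 5 dpw and 223 CPM at 3 dpw, Itga3 had 41.8 and 72.3 CPM, and Itgb4 had 92.4 and 153 CPM. Itgb4 was lower in female cells (108 and 170 CPM) and in male cells (89.5 and 144 CPM), and its fold was -0.68 in the floxed pools. Within the clusters of like cells read below, Itga3 was lower in 9 of 12 and Itgb4 in 11. The laminin genes did not hold there, with Lamb3 higher in 7 of 12 and Lama3 (-0.74 in the pool) in 10. The keratins of the same layer differed far less, with log2 folds of 0.10 for Krt14 and 0.05 for Krt5.

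Wound keratins were high on both days. Krt6a had 6702 CPM at 5 dpw and 6731 CPM at 3 dpw, and Krt16 had 10719 and 9567 CPM. Unwounded cells, from the other gate, held 1017 and 984 CPM of them. Krt17, a keratin of follicle and wound, was the member with a fold past 1.5, at 2266 CPM at 5 dpw and 3433 CPM at 3 dpw (-0.60), with 2916 and 3139 CPM in female cells and 2148 and 3718 CPM in male cells. Of 9 measured EGF family ligands and receptors, Tgfa was at least 1.5-fold lower, at 38.7 and 79.6 CPM, and the receptor gene Egfr had 167 and 162 CPM. The list median was -1.28 in female and -0.06 in male cells. In female cells the ligand genes Nrg1, Hbegf and Epgn had log2 folds of -1.82, -1.68 and -1.31, against -0.06, -0.14 and -0.40 in male cells. The ligand gene Ereg split by sex, with 8.49 CPM at 5 dpw and 57.7 CPM at 3 dpw in female cells, and 106 and 59.3 CPM in male cells.

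Odc1, which encodes ornithine decarboxylase, the rate-limiting enzyme of polyamine synthesis, was lower outside any of these lists. It had 204 CPM at 5 dpw (219 in female, 203 in male cells) and 613 CPM at 3 dpw (907 and 477), a log2 fold of -1.59 with no overlap. The floxed pools gave 187 and 653 CPM. Hopx, a homeodomain-only gene found in follicle stem cells and in differentiating keratinocytes, had 73.6 CPM at 5 dpw and 180 CPM at 3 dpw, against 338 CPM in unwounded cells.

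Genes of the bulge niche were already low at 3 dpw beside the unwounded cells. The stem cell marker gene Cd34 had 8.15 CPM at 5 dpw (15.5 in female, 5.6 in male cells), 22.2 CPM at 3 dpw (20.8 and 22.2) and 534 CPM in unwounded cells, which were sorted for the CD34 protein. Postn, a matricellular gene, had 103 CPM at 5 dpw and 203 CPM at 3 dpw, and Sfrp1, a secreted WNT antagonist, had 50.2 and 88.5 CPM. Of 20 measured bulge genes, 7 were at least 1.5-fold lower, beside 2.99% of all genes, and 0 higher, and the list's median log2 fold was -0.38. It was 0.39 in female cells, -0.67 in male cells and -0.87 in the floxed pools, which hold male cells, and it was 0.02 when female and male cells had equal weight. Postn is 1 member that shows the split, with 246 CPM at 5 dpw and 201 CPM at 3 dpw in female cells, and 68 and 208 CPM in male cells. Sfrp1 and Nfatc1 also split, with log2 folds of 0.09 and 0.38 in female and -1.21 and -1.02 in male cells. In contrast, Gas1 was higher and Col17a1 lower in both sexes. Sox9 itself had 68.6 and 63.6 CPM, and Gas1, a growth arrest gene of the bulge, had 150 and 104 CPM.

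Upper follicle genes had the lowest list median, -0.58, with 8 of 16 measured members at least 1.5-fold lower (2.99% over all genes) and 0 higher. The sexes again parted, at 0.02 in female and -0.63 in male cells. Krt79, a keratin of the infundibulum and gland duct, had 163 CPM at 5 dpw and 317 CPM at 3 dpw, made of 481 and 275 CPM in female cells and 109 and 322 CPM in male cells. Cst6, which encodes the protease inhibitor cystatin M/E, had 337 and 857 CPM, with 825 and 765 CPM in female cells. Defb6, a beta-defensin gene, had 82.2 CPM at 5 dpw and 235 CPM at 3 dpw, with 343 and 211 CPM in female cells and 30.7 and 241 CPM in male cells. The 5 cells with the most Defb6 UMIs held 43.0% of them at 5 dpw and 24.0% at 3 dpw. For Krt79, Cst6 and Defb6 the direction seen in the pool is therefore that of the male cells.

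Interferon genes had a list median near 0 (0.02), yet 6 of 21 measured members were at least 1.5-fold higher, against 1.30% of all genes, and 0 lower. These were Cxcl10, Isg15, Bst2, Cxcl9, Ifi27l2a and Irf1. Cxcl10, a chemokine for T cells that interferon-γ induces, had 36.7 CPM at 5 dpw and 8.28 CPM at 3 dpw, and Isg15, a ubiquitin-like protein, had 9.16 and 2.40 CPM. In male cells Cxcl10 had 42.9 CPM at 5 dpw and 3.97 CPM at 3 dpw, whereas in female cells it had 10.2 and 19.0 CPM. The log2 fold was 2.15 in the pool, 3.43 in male cells, -0.89 in female cells and 0.71 in the floxed pools. It was 1.84 without the cluster led by Cxcl9 and Cxcl10 described above, in which 96 of 108 cells came from 5 dpw. The antigen presentation genes B2m (151 and 201 CPM) and H2-K1 (213 and 273 CPM) were lower by less than 1.5-fold in the pool, and higher in female cells, with log2 folds of 0.33 and 0.38.

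The Cxcl10 promoter is shown because its pair of GAAA words, 2 bases apart, is the core of the element that interferon regulatory factors are known to bind. It lies at chr5:92348840-92349139 on the minus strand of GRCm38.p6 and is written in the direction of the gene, with the GAAA pair and an AP-1 motif in capitals.
Cxcl10 promoter: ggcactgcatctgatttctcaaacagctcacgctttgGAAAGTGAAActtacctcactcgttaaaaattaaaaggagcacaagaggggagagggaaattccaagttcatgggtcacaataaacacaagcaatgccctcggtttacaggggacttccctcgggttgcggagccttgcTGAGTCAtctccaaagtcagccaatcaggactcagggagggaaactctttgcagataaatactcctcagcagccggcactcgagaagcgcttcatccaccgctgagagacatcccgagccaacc
Of all RefSeq promoters of this length, 3.44% hold such a pair on either strand, and the Mmp13 promoter above holds it too.

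Serine synthesis genes were almost level between the days. Phgdh had 136 CPM at 5 dpw (105 in female, 144 in male cells) and 115 CPM at 3 dpw (104 and 119), a log2 fold of 0.25. Psph, the phosphatase of the last step, had 129 and 113 CPM, and Psat1, the aminotransferase between them, had 81.2 and 78.4 CPM. In the floxed pools Phgdh stood at 21.4 CPM at 5 dpw and 17.3 CPM at 3 dpw. None of 29 measured ATF4 target genes and none of 20 aminoacyl-tRNA synthetase genes passed 1.5-fold in either direction, with medians of -0.06 for both lists. Atf4 itself had 123 and 128 CPM. Nupr1, a stress-induced ATF4 target, had 178 CPM at 5 dpw and 134 CPM at 3 dpw, made of 92.4 and 139 CPM in female cells and 195 and 123 CPM in male cells. Sesn2, a brake on mTORC1, had 20 and 29.1 CPM. Unfolded protein response genes leaned lower, with 16 of 18 members below 0 (15 with TMM factors) and a median of -0.22, and none passed 1.5-fold. Among all 9366 genes of at least 5 CPM, 5911 were below 0.

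Proliferation genes leaned lower by small amounts. All 23 measured G1/S genes and all 27 G2/M genes had folds below 0, with medians of -0.19 and -0.13, and none reached 1.5-fold. Of all 9366 genes of at least 5 CPM, 5911 had folds below 0. With TMM factors, which moved every log2 fold up by 0.047, 21 of the 23 and 24 of the 27 lay below 0. Mki67, a marker of cycling cells, had 133 CPM at 5 dpw and 141 CPM at 3 dpw. The female cells differed most: there Mki67 had 88.1 and 129 CPM and the G2/M median was -0.69, against 144 and 149 CPM and -0.05 in male cells. In the floxed pools the G2/M median was 0.06. Among other lists, oxidative phosphorylation had a median of 0.00, glycolysis -0.15, cholesterol synthesis -0.07 and ribosome biogenesis -0.02, with no member past 1.5-fold in any of the 4.

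Among lists of signalling and plasticity genes, counts at 1.5-fold were 3 or fewer in each direction. Over all 9366 genes of at least 5 CPM, 1.30% were at least 1.5-fold higher and 2.99% at least 1.5-fold lower. Of 11 TGF-β and plasticity genes, 3 were higher and 1 lower, of 14 WNT and hedgehog genes 2 were higher and 3 lower, and of 13 BMP and Id genes 0 were higher and 3 lower. Sox4, a transcription factor linked to epithelial plasticity, had 48.4 CPM at 5 dpw (40.2 in female, 49.6 in male cells) and 22.3 CPM at 3 dpw (24.5 and 20.3), a log2 fold of 1.12. Thbs1, which encodes thrombospondin 1, an activator of latent TGF-β, had 59.3 CPM at 5 dpw (76.9 and 56.2) and 30.6 CPM at 3 dpw (30 and 28.2). Its log2 fold of 0.95 was 0.59 without the cluster led by Cxcl9. Wnt5a, a ligand of noncanonical WNT signalling, had 41.1 CPM at 5 dpw (26.5 and 44.8) and 22.1 CPM at 3 dpw (15.7 and 24.6). Within each of these 3 genes, the 5 dpw values of female and male cells lay above those of 3 dpw, as they did for 11.1% of the 9366 genes of at least 5 CPM, while 20.5% lay below and 31.6% were apart in either direction. Inhba, the activin A subunit gene, was lower at 12 and 29.4 CPM. The Hedgehog effector gene Gli2 had 34.5 and 21.9 CPM, and the Notch target Hes1 had 78.7 and 55.6 CPM, with 0 of 25 Notch and fate genes at least 1.5-fold higher and 2 lower. Immediate early genes, which respond to handling as well as to growth factors, were above 0 for 19 of 21 members, beside 3455 of all 9366 genes. Their medians were 0.27 in the pool, -0.26 in female and 0.45 in male cells.

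**Figure D3:**
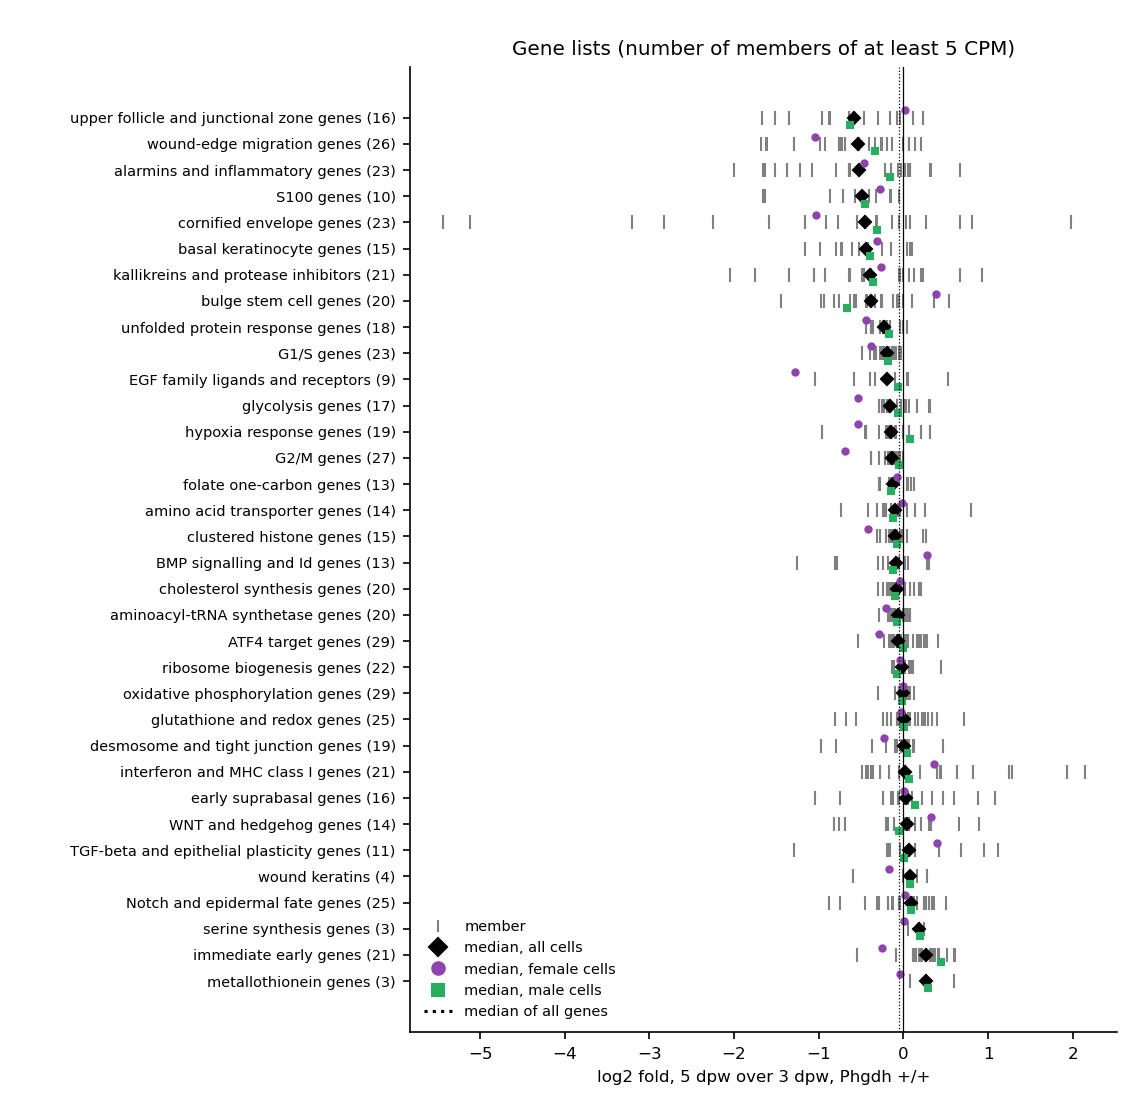
Log2 fold (5 dpw over 3 dpw) of each measured member of 34 gene lists as a grey tick, with the median over all cells as a black diamond, over female cells as a purple circle and over male cells as a green square. Upper follicle, wound-edge and alarmin lists have the lowest medians, most metabolic lists sit near the dotted median of all genes at -0.05, and female and male medians part for the bulge and upper follicle lists.

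Folds of the named genes were also read within clusters of like cells. The 2970 cells fell into 17 clusters, of which 12 had at least 50 cells on both days. By the marker lists, cluster 1 was early suprabasal-like, clusters 2 and 10 cycling-like, 4 and 7 bulge-like, 9 wound-edge-like and 11 upper follicle-like. Cluster 10 also had the chemokine genes Cxcl10 and Cxcl9 among its leading genes, and the other 5 of the 12 kept only a number. Robo1 was higher at 5 dpw in 12 of the 12 clusters, with log2 folds of 0.37 to 3.56, and Ctsc in 11 of 12. S100a8 was lower in 12 of 12, with folds of -3.45 to -0.19, and Itgb4 and Sbsn in 11 of 12. Cxcl10 was higher in 11 of 12 and Sox4 in 11 of 12. Krt10 was higher in 10 of 12, and its fold was 0.76 in the early suprabasal-like cluster and 2.98 in the upper follicle-like one.

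Other genes differed from cluster to cluster. Of the 15 highest genes, 8 were higher in at least 10 of the 12 clusters, and of the 15 lowest, 7 were lower in at least 10. These genes were chosen by their folds over the same cells, and only named genes were read within clusters. No share over all genes therefore stands beside the counts, which are a description. Lce3c, Mmp13 and Cnfn were lower in 6 or fewer. Mmp13 was higher in 6 clusters and lower in 5, with a median fold of 0.01, and Mmp9 was higher in 8 and lower in 4. In the wound-edge-like cluster, which held 53 cells at 5 dpw and 131 at 3 dpw, the folds were -0.51 and -0.52. Odc1 was lower in 8 of 12 clusters, with a median of -0.56. Among genes lower in the pool, Lama3 was higher in 10 of 12 clusters, Igfbp3 in 9, Lamb3 in 7 and Sprr1a in 6. Cell numbers per cluster are given for each day, and 3 clusters were picked above by the share of 1 pool. Neither is read as a change in cell makeup, since genes that define clusters also differ between the days.

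**Figure D4:**
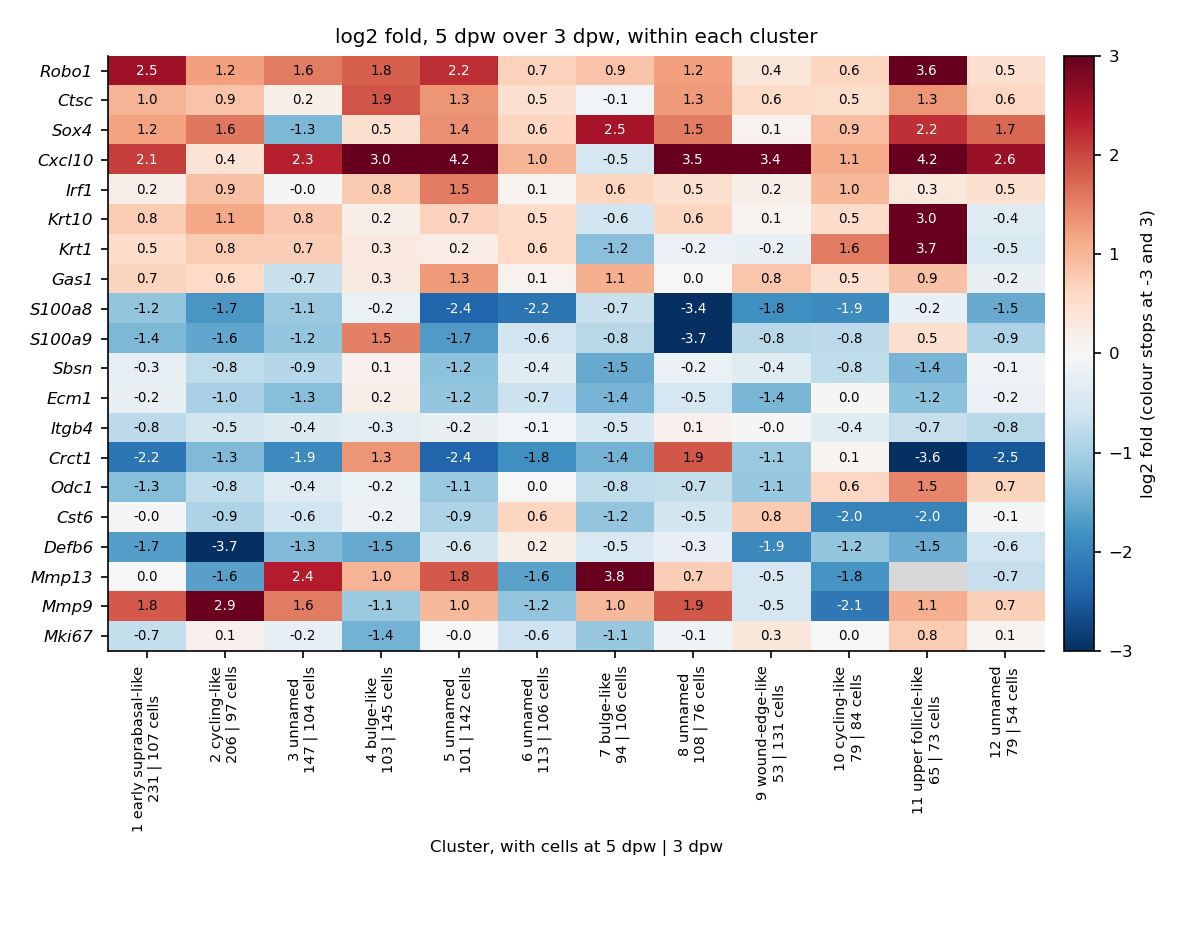
Log2 fold (5 dpw over 3 dpw) of 20 named genes within each of the 12 clusters with at least 50 cells on both days, red for higher and blue for lower at 5 dpw, grey where a pool had no UMIs, with cell numbers for 5 dpw before those for 3 dpw. Robo1 is red in all 12 columns and S100a8 blue in all 12, whereas Mmp13 and Mmp9 change colour from column to column.

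Shares of cells were read after thinning each cell to 5000 UMIs, which kept 1502 cells at 5 dpw and 1382 at 3 dpw and left out 57 and 29. Unwounded +/+ cells (235 kept, from a median depth of 7455 UMIs) gave the level in cells outside the wound; the kept wound cells had medians of 38249 UMIs at 5 dpw and 41593.5 at 3 dpw. At least 1 Robo1 UMI was found in 25.1% of cells at 5 dpw (Clopper-Pearson 95% interval 22.9 to 27.4) and in 7.89% at 3 dpw (6.52 to 9.44), with 4.26% in unwounded cells. Before thinning the shares were 53.9% and 28.0%. At least 5 Krt10 UMIs were found in 26.4% of cells at 5 dpw and 12% at 3 dpw, with 0.851% in unwounded cells. At a single UMI the Krt10 share of unwounded cells was 42.1%, as large as the 42.6% at 3 dpw, so the single-UMI share is read as background.

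Several of the lower genes were also seen in a smaller share of cells at 5 dpw. S100a8 was seen in 13.2% of thinned cells at 5 dpw and 23% at 3 dpw, with 3.83% in unwounded cells, and S100a9 in 18.1% and 26.3%, with 7.66%. At least 5 Odc1 UMIs were found in 4.19% at 5 dpw and 14.1% at 3 dpw, with 8.51% in unwounded cells. Cd34 was seen in 4.66% at 5 dpw and 11.7% at 3 dpw, with 90.2% in unwounded cells. Sox4 showed the reverse, at 17.9% and 8.83%, with 5.96% in unwounded cells. For Mki67 the shares were 29.0% and 32.8%, with 2.55% in unwounded cells, and differed by -3.75 percentage points with a 95% interval of -7.12 to -0.38.

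**Figure D5:**
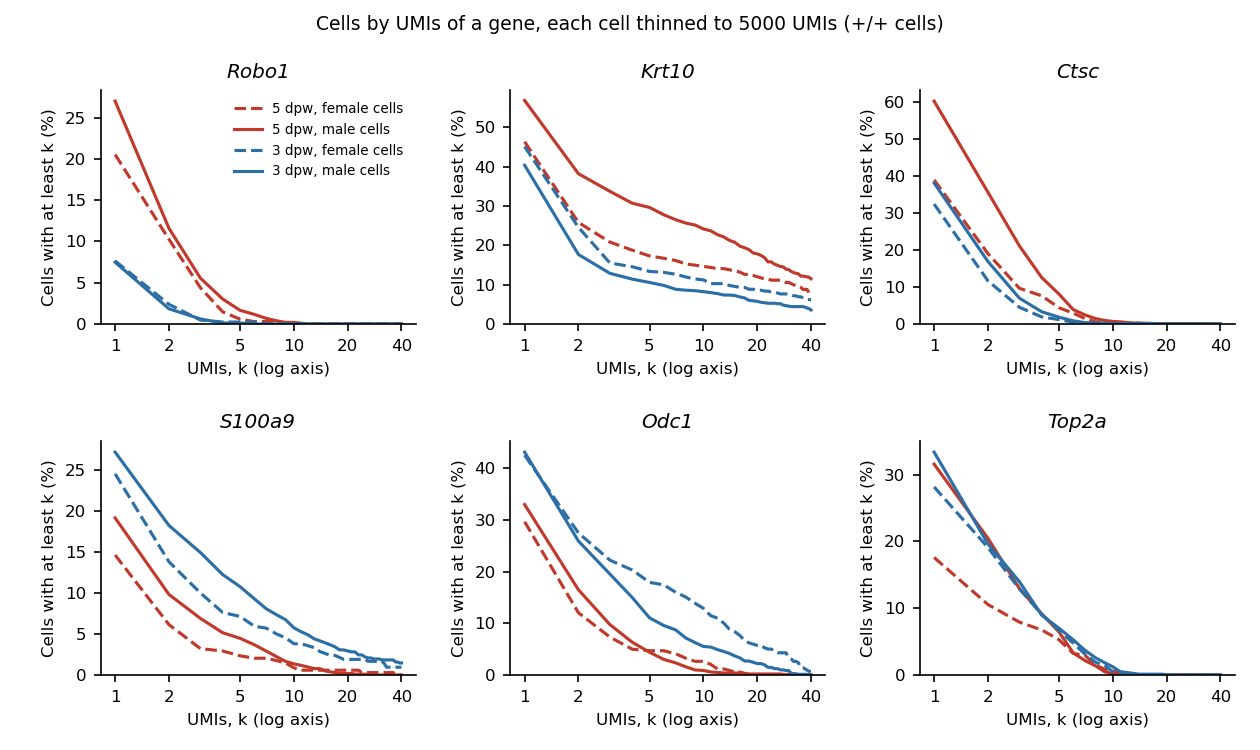
Share of cells (percent) with at least k UMIs of a gene after each cell was thinned to 5000 UMIs, against k on a log axis, red for 5 dpw and blue for 3 dpw, dashed for female and solid for male cells. The red Robo1 curves start at 20.5% (female) and 27% (male), above the blue ones at 7.64% and 7.48%, whereas for Top2a the male curves of both days run together.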

How the data were processed

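The deposited matrix holds whole-number UMI counts per gene or hashtag and barcode, made by the authors with Cell Ranger 7.1.0 on the mm10 build, per the file headers and the submitters' processing notes, which also name Seurat 4.3.0. It lists 2997303 barcodes, 32285 genes and 6 hashtags, with 317114087 gene UMIs. Of 9829 barcodes passing the UMI and gene minimums, 2929 were dropped for mitochondrial content, and 5890 of the 6900 kept had a condition. The feature reference gives each hashtag's condition. The labels call the hashtags TotalSeq-B.

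UMIs were summed per pool and scaled to CPM. Log2 ratios (5 dpw over 3 dpw) carry exact conditional binomial 95% intervals. UMIs are molecules, but intervals omit any spread between mice. Female cells had at least 2 Xist UMIs and at most 1 UMI of 4 Y-linked genes, and male cells the reverse. Cells were clustered with scanpy 1.11.5 (2000 variable genes, 30 components, 15 neighbours, Leiden resolution 1). Named clusters rest on at least 3 markers. Hashtag doublets fall under the 70% rule; Scrublet called 0 of 6900 barcodes with its own threshold, so it was not used to remove cells. Free RNA made up 0.623% and 0.585% of the 2 pools' UMIs.

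Genes were named by rule: the 15 highest and 15 lowest folds among genes of at least 50 CPM, up to 5 members of at least 20 CPM per list with the largest folds, and a set list. Other list members named were chosen after their values were seen. Of 174 named genes, 169 were placed in the GRCm38.p6 table. The genes and lists were chosen with earlier results of these data known. The fold script was tested on simulated counts. Alternatives used Python 3.11.15, R 4.3.3, Seurat 5.3.0 and edgeR 4.0.16 (TMM factors). One capture gives no batch to compare.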

Additional observations from a re-analysis of the deposited data

Results flagged for a closer look

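For 6 of the 174 named genes the female and the male cells of the pools lay on opposite sides of 0, each by at least 1.5-fold. Only named genes were read by this rule, so no share over all genes stands beside the count. At any size of fold, female and male cells had the same direction for 60.1% of the 2836 genes of at least 50 CPM. The log2 folds (5 dpw over 3 dpw) were 0.70 in female and -2.97 in male cells for Defb6, -2.76 and 0.84 for Ereg, -0.89 and 3.43 for Cxcl10, -0.65 and 0.62 for Hk2, 0.81 and -1.56 for Krt79, and -0.88 and 2.54 for Flg. These differences were not tested, since each sex of a pool is a single group of cells from an unknown number of mice. Female cells at 5 dpw had a median of 23317 UMIs, against 44347 in male cells, and 75 of the 343 lay in cluster 6, against 24 of 1030 male cells. Whether depth or cell makeup has a part in the split was not tested.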

How the results depend on the processing

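The 2-fold counts were 3 higher and 20 lower. Higher genes numbered 1 at a limit of 5% mitochondrial UMIs, 6 with equal weight per cell, 7 in male cells, 17 in female cells, 29 at a minimum of 5 CPM and 1038 with no minimum. Lower genes numbered 62 in female cells, 88 at 5 CPM, 1580 with no minimum and 9 without the 3 clusters of which 1 pool held at least 80%, or without the one led by Lce3d alone. Those settings, the one for cells of at least 20000 UMIs and equal weight for the sexes were added after the data were seen.

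Of the 30 highest and lowest genes, 30 kept their direction under each of 17 other settings, 23 in female cells and 29 without the 3 clusters. In female cells alone the sign turned for list medians (bulge 0.39, upper follicle 0.022, immediate early -0.26, metallothionein -0.036) and for Itpkc (-0.25), Irf1 (-0.34), Lgals1 (-0.060), Mt4 (-0.036), Defb6 (0.70), Cst6 (0.11), Postn (0.29), Sfrp1 (0.089), Nfatc1 (0.38), Cxcl10 (-0.89), Krt79 (0.81), S100a1 (0.057) and Flg (-0.88). The bulge median was 0.020 with equal weight for the sexes. Without the 3 clusters the kallikrein median was 0.000823, Defb14 0.028 and Slc6a14 0.10 (0.092 without the Lce3d cluster). Flg was -0.85 at 5% mitochondrial UMIs and -0.54 without its 5 highest cells. The Psat1 share difference was 1.61 points at 10000 UMIs. The cause of these changes was not tested. TMM factors moved all log2 folds by 0.047, which left 10 alarmin, 7 upper follicle, 5 basal and 5 bulge genes at least 1.5-fold lower. No paired analysis was possible because each condition is 1 pool and the labels give no replicate numbers. One pool a day, an unknown number of mice and shallow female cells at 5 dpw limit every comparison.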
